A study of Mus musculus with 47 samples.

Results

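The 10 genes described here, Kmt2a, Kmt2b, Kmt2c, Kmt2d, Setd1a, Setd1b, Kdm6a, Kdm6b, Ezh1 and Ezh2, encode the enzymes that put methyl groups on lysine residues H3K4 and H3K27 of histone H3 or take them off H3K27. They were chosen by gene symbol, and all 10 were found in each of the 3 tables from bone marrow-derived macrophages (BMDMs) and the 4 tables from the macrophage line Raw264.7. They are 10 of the 51912 genes with counts in each BMDM table. In the mouse genome build GRCm38, Kmt2a lies on chromosome 9, Kmt2b and Setd1a on 7, Kmt2c and Setd1b on 5, Kmt2d on 15, Kdm6a on X, Kdm6b and Ezh1 on 11, and Ezh2 on 6.

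H3K4 methylation marks active promoters and enhancers, and H3K27 trimethylation marks genes kept silent by the Polycomb repressive complex PRC2. Kmt2a and Kmt2b, Kmt2c and Kmt2d, and Setd1a and Setd1b are the paired catalytic subunits of the COMPASS-type H3K4 methyltransferases, Kdm6a and Kdm6b remove methyl groups from H3K27, and Ezh1 and Ezh2 are the alternative catalytic subunits of PRC2. In macrophages, Kdm6b is known as a gene that bacterial lipopolysaccharide (LPS) induces.

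The study examined what the chromatin reader Zmynd8 does to inflammatory gene expression in macrophages, with RNA-seq of 12 libraries, 1 for each group. BMDMs came from C57BL/6 mice with floxed Zmynd8 alleles and no Cre (WT), or with the Lyz2-Cre that deletes exons 6 and 7 of Zmynd8 in the myeloid lineage, neutrophils included (Zmynd8 cKO), and were grown for 5 days in 20 ng/ml M-CSF. For each genotype there was a library of untreated cells (M0), of cells given 100 ng/ml LPS for 6 h (M1), and of cells given 20 ng/ml IL-4 for 6 h (M2). Each BMDM library was made from a mix of 3 biological replicates, so the spread between animals cannot be read from any of them, and the age of the mice is not given in the sources used.

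The 6 libraries labelled Raw264.7 are described as coming from lines in which a lentiviral CRISPR guide had been used to knock out Zmynd8 or the NF-κB subunit p65, encoded by Rela. In the Zmynd8 KO line, either WT Zmynd8 or the D/E-A mutant, whose acidic residues in a disordered region are alanines, was put back with a retroviral vector. In the p65 KO line, either WT p65 or the acetylation-site mutant K122R was put back, and these 3 p65 lines were given LPS. The column name of the line with WT p65 does not itself name the knockout, though its sample title does. The sample titles of all 3 Zmynd8 lines name no treatment. The study's text gives LPS for the lines with WT Zmynd8 and D/E-A. Whether each line is a clone or a pool of cells is not stated in the sources used.

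The BMDM libraries held 22597408 to 28386612 estimated counts, and the Raw264.7 libraries held 15127110 to 21042628 reads recovered from the deposited values. A gene's BMDM level is given as CPM, its estimated counts scaled by the library total, which follows 1 gene across libraries. The deposited TPM, which also divides by length, was used to order genes within a library. A gene was called higher or lower where its CPM plus 1, or in Raw264.7 its deposited value plus 1, differed by a fold of at least 1.2 between 2 libraries. All 10 genes passed the low-value filter in all 11 comparisons. With 1 library for each group no difference could be set against the spread between replicates. The limits given are 95% Clopper-Pearson limits of the ratio of reads and cover counting error only.

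The library labels were checked against the genes they name. Zmynd8 stood at 87.1, 79.0 and 128 CPM in the WT M0, M1 and M2 libraries, and at 81.5, 86.8 and 151 CPM in the libraries labelled Zmynd8 cKO. The summed counts were thus not lower after Cre in M1 or M2, and they do not resolve the floxed exons. In the Raw264.7 library labelled Zmynd8 KO, Zmynd8 had a deposited value of 116 against 506 with WT Zmynd8, a log2 difference of -2.11. Converted to reads, that 116 lies 0.459 of a read from the nearest whole number, the 1 such case in its column, and so this check does not rest on a plain read count. Rela had 765 reads in the p65 KO library, 1601 with WT p65 and 5850 with K122R. Zmynd8 was lower with K122R than with WT p65, at a log2 fold change of -0.72.

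Treatment and cell type markers were read next, as sums over each list. The LPS markers Nos2, Il1b and Cxcl10 summed to 10396 CPM in WT M1 and 10640 CPM in cKO M1, with Nos2 the most abundant there, to 35.8 and 14.3 CPM in WT M0 and cKO M0, and to 36.6 and 146 CPM in WT M2 and cKO M2. All 3 were higher in cKO M2 than in WT M2, with a median log2 fold change of 1.87. Of the genes known to respond to IL-4, Chil3 stood at 296 CPM in WT M2 and 399 CPM in cKO M2 and at no more than 0.687 CPM in the M0 and M1 libraries, and Retnla had 85 counts in WT M2, 5 in cKO M2 and 0 in the M0 and M1 libraries. The 6 macrophage markers, all present, summed to 6128 CPM in WT M1 and up to 9443 CPM in WT M2. The LPS markers thus marked both M1 libraries. The M2 labels rest mainly on Chil3, which was also high in the Raw264.7 Zmynd8 lines, whose labels name no IL-4, and so they were not checked as firmly.

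Most neutrophil markers on the list were higher in the M2 libraries. S100a8, S100a9, Ly6g, Camp and Ngp summed to 281 CPM in WT M2 and 394 CPM in cKO M2, with S100a9 the most abundant, and to 2.14, 3.85, 2.35 and 2.35 CPM in WT M0, WT M1, cKO M0 and cKO M1, with S100a8 the most abundant. Ly6g, the surface marker among them, had 3 counts in WT M2, 2 in cKO M2, 1 in WT M0 and 0 in the other 3 libraries, and did not follow the sum. B cell markers summed to at most 0.427 CPM, T cell markers to at most 0.0443, fibroblast markers to at most 1.69 and dendritic cell markers to at most 8.92 CPM in any BMDM library.

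The Raw264.7 libraries fell into 2 groups by genes that do not belong to the knockouts. The neutrophil markers summed to 6050 RPM, reads scaled by the library total as for CPM, in the Zmynd8 KO library, 9145 with WT Zmynd8 and 3732 with D/E-A, against 0.192 with WT p65, 0.180 with K122R and 0.264 in p65 KO. Xist, the RNA of the inactive X chromosome, had 7109, 8467 and 8062 reads in the library labelled Zmynd8 KO and in those with WT Zmynd8 and with D/E-A, against 2, 0 and 3 in the WT p65, K122R and p65 KO libraries. The B cell markers summed to 80.4 to 109 RPM in the Zmynd8 lines and to at most 0.255 in the p65 lines. Raw264.7 was established from a male mouse. The Y-linked Ddx3y, Eif2s3y and Kdm5d had 0 reads in the Zmynd8 KO library and 1, 1 and 2 with WT Zmynd8, against 400, 253 and 104 with WT p65. The cells behind the 3 libraries of the Zmynd8 lines are therefore uncertain, they are called by their labels here, and each value given for D/E-A or Zmynd8 KO carries that limit. In all 6 libraries the 6 macrophage markers were present, summing to 1116 to 3690 RPM, and the LPS markers summed to 3508 to 7788 RPM. T cell markers summed to at most 3.60, fibroblast markers to at most 8.73 and dendritic cell markers to at most 24.7 RPM, and Chil3 reached 1113 RPM in the Zmynd8 lines and was not listed in the p65 lines. The 10 enzymes were compared within the Zmynd8 lines and within the p65 lines, and not between them.

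Per length, the H3K27 methyltransferase Ezh1 or the H3K4 methyltransferase Kmt2d had the highest TPM of the 10 genes in each BMDM library. In WT M0, Ezh1 had a TPM of 18.3, Kmt2d 17.1 and Kmt2b 15.5, and Kdm6b was lowest at 1.59. Kdm6b was the lowest of the 10 in M0 and M2 of both genotypes and took rank 7 in both M1 libraries. It also had the widest range over the 6 libraries, with a highest CPM 9.47 times its lowest, and Ezh2 had the narrowest, at 1.63 times.

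**Figure D1:**
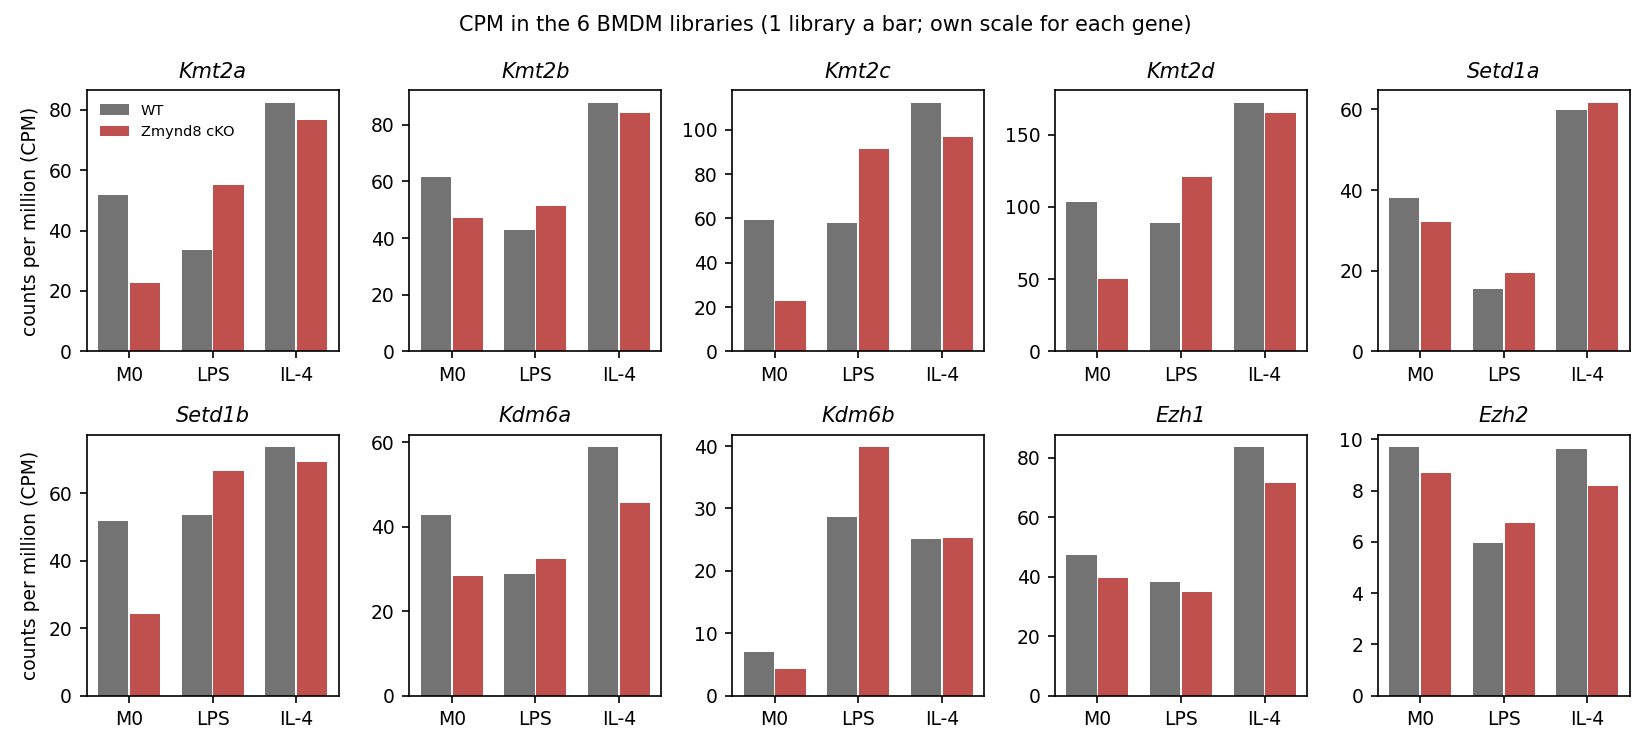
Level of each of the 10 genes in the 6 BMDM libraries, in CPM on an axis that starts at 0, with 1 bar for each library. Kmt2a, Kmt2c, Kmt2d and Setd1b had their lowest bar in cKO M0, and Kdm6b had its highest bars in both M1 libraries.

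In untreated BMDMs, all 6 H3K4 methyltransferases had a lower CPM in the cells labelled Zmynd8 cKO than in WT, and 5 of the 6 were called lower, against 29.0% of all genes tested and 64.5%, 71.1% and 74.2% of those with transcripts of 6 to 8, 8 to 12 and at least 12 kb. Kmt2c, a catalytic subunit of the complexes that place H3K4 monomethylation at enhancers, stood at 59.3, 57.7 and 112 CPM in WT M0, M1 and M2, and at 22.7, 91.2 and 96.8 CPM in cKO M0, M1 and M2. Kmt2d, its partner in that role, stood at 104, 88.8 and 172 CPM in WT and at 49.96, 121 and 165 CPM in cKO, in the same order. Both had their lowest level in cKO M0 and were higher in cKO than in WT in M1, while the difference in M2 was not called. The log2 fold change of cKO against WT in M0 was -1.35 for Kmt2c, with limits of -1.54 and -1.24, and -1.04 for Kmt2d, with limits of -1.16 and -0.95.

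Kmt2a, which keeps Hox genes active in blood progenitors, stood at 51.8, 33.7 and 82.3 CPM in WT M0, M1 and M2, and at 22.6, 55.0 and 76.7 CPM in cKO. Setd1b, a catalytic subunit of the complexes that place H3K4 trimethylation at promoters, stood at 51.9, 53.5 and 73.7 CPM in WT and at 24.2, 66.6 and 69.3 CPM in cKO. Both had their lowest level in cKO M0, as Kmt2c and Kmt2d did. In M0 the log2 fold change was -1.16 for Kmt2a and -1.07 for Setd1b. Kmt2b, the partner of Kmt2a, fell less, with a log2 fold change of -0.38, and Setd1a, the partner of Setd1b, had a value of -0.24 and was not called.

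Over all 10 genes in M0, 7 were called lower and 0 higher in the library labelled cKO, while 29.0% of the 12463 genes tested were lower and 25.0% higher. The median log2 fold change was -0.60 for the 10 genes and -0.01 for all genes tested. With the deposited TPM in place of CPM, higher genes made up 22.0% of all calls in this comparison, against 46.3% with CPM, and 9 of the 10 enzymes were called lower. In bulk libraries, fewer cells of a type and less RNA per cell cannot be told apart. Of the 15 proliferation genes 10 were higher and 0 lower in cKO M0, with a median of 0.45, and of the 6 macrophage markers 4 were lower and 1 higher, with Mertk lowest at -1.27. Xist, the RNA of the inactive X chromosome, was lower in cKO M0 at -1.19. It stood at 740, 246 and 1108 CPM in WT M0, M1 and M2, and at 323, 429 and 1057 CPM in cKO. The part of all these genes in the result was not tested.

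The same M0 comparison had a trend with transcript length over all genes. The median log2 fold change was 0.46 for the 727 genes whose longest transcript was below 1 kb and -0.58 for those of at least 12 kb, of which 74.2% were lower. The longest transcript was 19823 bases for Kmt2d, 16470 for Kmt2a, 14967 for Kmt2c, 8857 for Setd1b, 8469 for Kmt2b and 2787 for Ezh2. An alternative chosen after seeing the data subtracted from each gene the median of the 500 tested genes nearest in transcript length. After it, 4 of the 10 were lower and 0 higher, against 22.1% and 20.6% of all genes with a length. These 4 were Kmt2c at -0.82, Kmt2a at -0.63, Setd1b at -0.58 and Kmt2d at -0.51, while Kmt2b changed sign to 0.10. The part of transcript length in the values as measured was not tested.

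**Figure D2:**
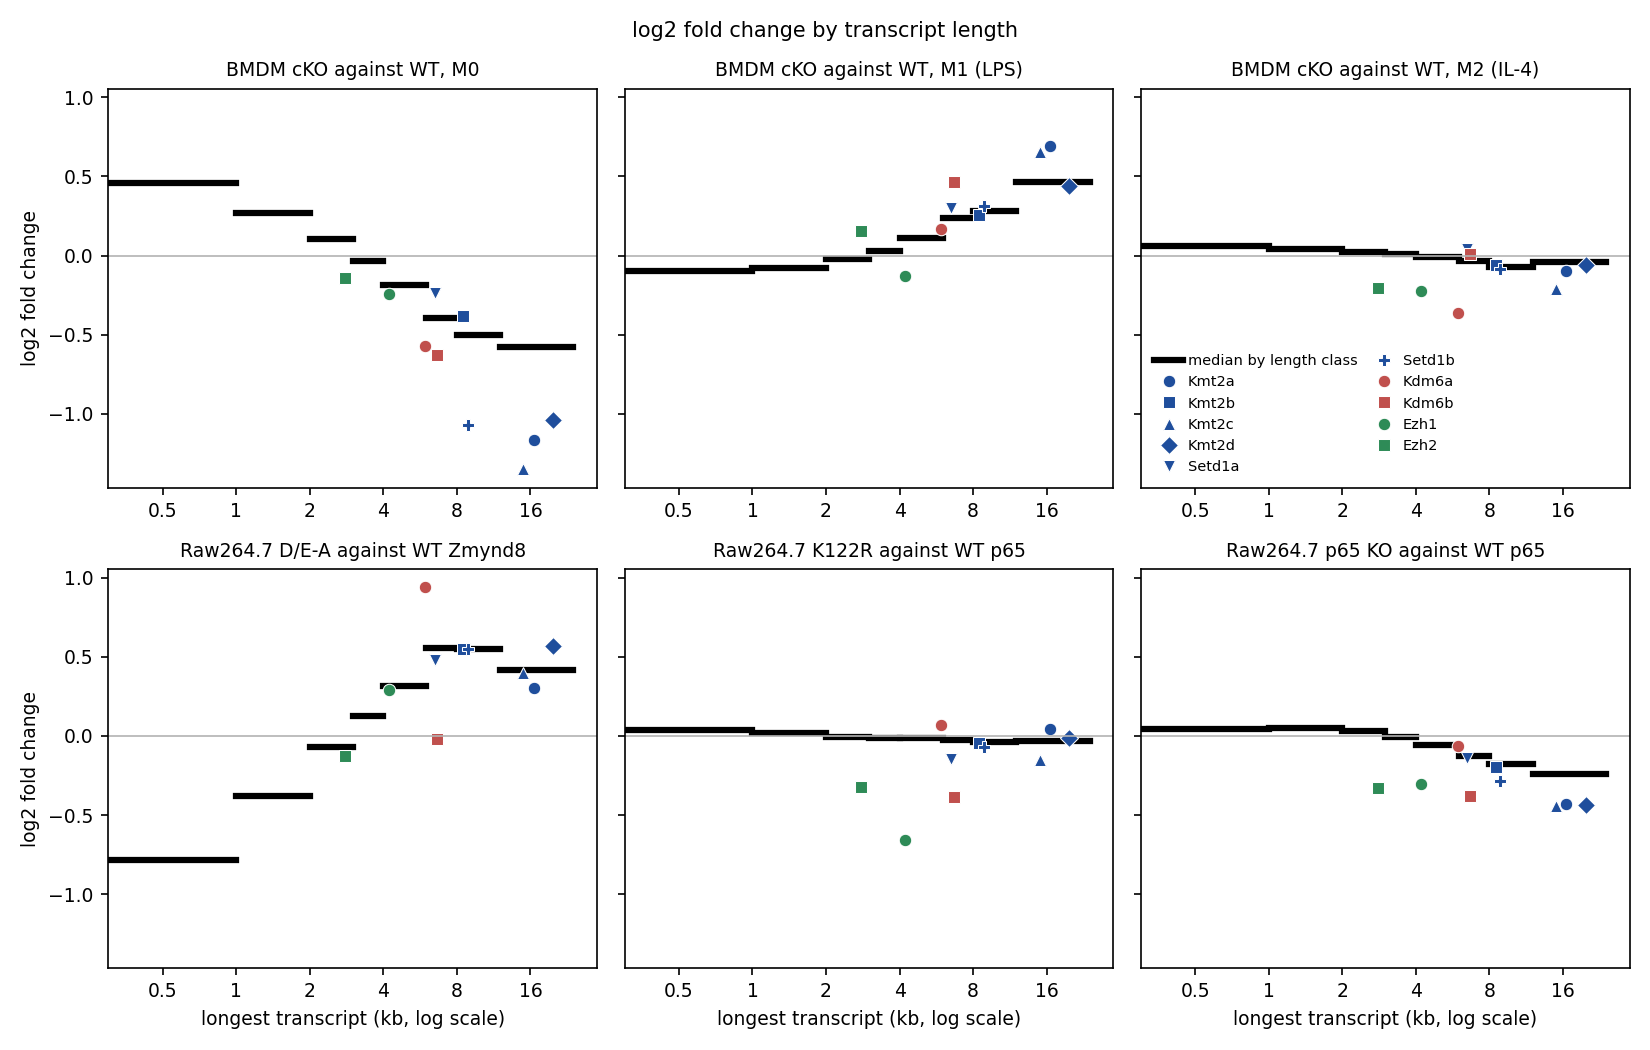
Log2 fold change against the length of the longest transcript in kb, on a log axis, in 6 comparisons. Black bars are medians of all tested genes in a length class, the last class having no upper bound, and symbols are the 10 genes; in M0 the bars go from 0.46 to -0.58 and in M1 from -0.10 to 0.47.

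After LPS, 6 of the 10 genes were higher and 0 lower in the cKO library than in WT, against 22.6% and 13.3% of the 12386 genes tested. Among the H3K4 methyltransferases the log2 fold change was 0.69 for Kmt2a, 0.65 for Kmt2c, 0.44 for Kmt2d, 0.31 for Setd1b and 0.30 for Setd1a. The last of these was not called with median-ratio or TMM scaling, and Kmt2b, at 0.25, was not called with CPM. With the deposited TPM, Kmt2d was not called, at 17.02 in WT M1 and 19.24 in cKO M1, while Kdm6a was called higher. The median was 0.31 for the 10 genes and 0.03 for all genes. Here the length trend ran the other way, from -0.10 below 1 kb to 0.47 at 12 kb or more. Once length was subtracted, 2 of the 10 were higher, Kmt2a at 0.33 and Kmt2c at 0.29, and 0 lower, against 16.2% and 14.8% of all genes. In the same comparison 1 of the 3 LPS markers was higher and 0 lower, with Il1b at 1.42 and Nos2 at -0.02. Of the 6 macrophage markers 2 were higher and 0 lower, with Itgam at 0.66, and of the 13 proliferation genes tested 4 were higher and 1 lower. Their part was not tested.

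After IL-4, Kdm6a alone of the 10 was called in cKO against WT, where 1 was lower and 0 higher against 13.4% and 17.3% of the 13245 genes tested, and with the deposited TPM Ezh2 was called lower too. The 6 H3K4 methyltransferases had log2 fold changes of -0.21 for Kmt2c to 0.04 for Setd1a. The length trend was small, from 0.06 below 1 kb to -0.04 at 12 kb or more.

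The LPS and IL-4 libraries were also compared with M0 of the same genotype. These comparisons join libraries from different tables, whose sample titles number the M0 and M1 libraries 91 to 94 and the M2 libraries 62 and 63. The treatment IL-4 and that numbering cannot be told apart. They share the M0 libraries with the comparison of genotypes, and so a low value in cKO M0 enters both.

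In WT, LPS left 1 of the 10 higher and 6 lower with library-total scaling, against 21.7% and 63% of the 12813 genes tested. Setd1a stood at 38.0, 15.6 and 59.9 CPM in WT M0, M1 and M2, and at 32.0, 19.4 and 61.6 CPM in cKO. It was lowest in the M1 library of each genotype, with a log2 fold change of -1.23 in WT and -0.69 in cKO. The median of all genes tested was itself -0.58 in WT and -0.55 in cKO. Relative to that median, Setd1a stood at -0.65 in WT and -0.15 in cKO, and with median-ratio or TMM scaling it was called lower in WT and not called in cKO.

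The other H3K4 methyltransferases depended on the scaling in WT. Kmt2a was lower at -0.60 and Kmt2b at -0.52 with library totals, and with median-ratio scaling they stood at 0.09 and 0.18, and with TMM scaling at 0.06 and 0.15, uncalled. Setd1b, Kmt2c and Kmt2d were not called with library totals, at 0.04, -0.04 and -0.22, and were called higher with median-ratio scaling, at 0.74, 0.65 and 0.48. Relative to the median of all genes, Setd1b stood at 0.62, Kmt2c at 0.54, Kmt2d at 0.36, Kmt2b at 0.07 and Kmt2a at -0.02. The share of higher genes among all calls was 25.6% with library totals, 50.3% with median-ratio and 49.1% with TMM scaling. Subtracting by length left 7 of the 10 higher and 1 lower, against 38.5% and 38.9% of all genes.

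In the cKO libraries, LPS left 5 of the 10 higher and 2 lower, against 25.0% and 60.5% of the 12666 genes tested. Kmt2c rose by a log2 fold change of 1.96, Setd1b by 1.42, Kmt2d by 1.26 and Kmt2a by 1.25, and the direction of these 4 was the same with median-ratio and TMM scaling. Relative to the median of all genes they stood at 2.51, 1.97, 1.81 and 1.80. The share of higher genes among all calls was 29.3% with library totals, 50.6% with median-ratio and 48.9% with TMM scaling. Kmt2b at 0.12 and Kdm6a at 0.18 were not called with library totals and were higher with median-ratio scaling, at 0.77 and 0.82. Genes of at least 12 kb had a median of 0.16 in cKO and -0.73 in WT. With length subtracted, 8 of the 10 were higher and 1 lower, against 40.0% and 39.1% of all genes.

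After IL-4 all 6 H3K4 methyltransferases were higher than in M0 in both genotypes. In WT, 9 of the 10 genes were higher and 0 lower, against 41.3% and 23.1% of the 13090 genes tested, and in cKO likewise 9 were higher and 0 lower, against 44.7% and 26.2% of 12966 genes. Kmt2c had the largest value of the 6, with a log2 fold change of 0.91 in WT and 2.05 in cKO, and the smallest were 0.50 for both Setd1b and Kmt2b in WT and 0.83 for Kmt2b in cKO. The median of all genes was 0.15 in WT and 0.17 in cKO, and relative to it Kmt2c stood at 0.76 and 1.88 and Kmt2b at 0.36 and 0.66.

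Higher genes made up 64.1% of all calls after IL-4 in WT with library totals, 50.5% with median-ratio and 50.9% with TMM scaling. In cKO they made up 63.1%, 51.5% and 50.9%, and 76.6% with the deposited TPM, where Ezh2 was called lower. After the subtraction by length, 5 of the 10 were higher in WT and 0 lower, against 30.7% and 31.0% of all genes, and 7 were higher in cKO and 0 lower, against 33.3% and 32.6%. Of the H3K4 methyltransferases, Kmt2a at 0.25, Kmt2b at 0.18 and Setd1b at 0.16 were then not called in WT, nor Kmt2b at 0.06 in cKO. Genes of at least 12 kb had a median of 0.46 in WT and 1.02 in cKO. Ly6g was too low to be tested, and the 4 other neutrophil markers were all higher after IL-4 in each genotype, with a median of 5.37 in WT and 5.80 in cKO, and their part was not tested.

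**Figure D3:**
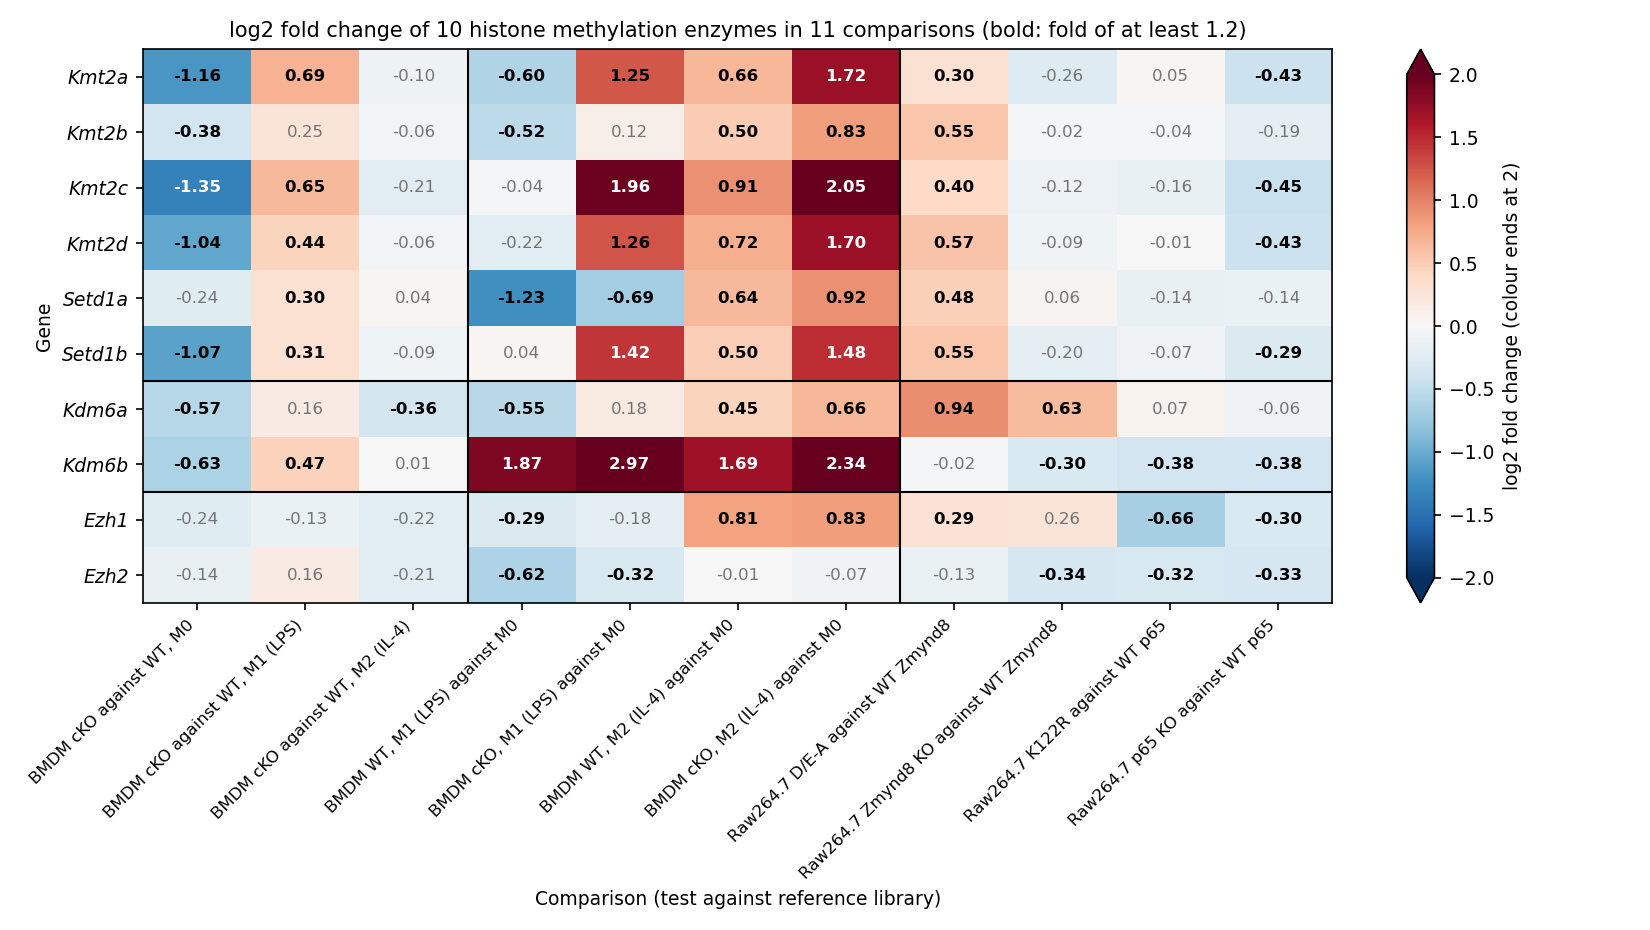
Log2 fold change of each of the 10 genes in the 11 comparisons, as colour and number, with values past a fold of 1.2 in bold. The row of Kdm6b holds the highest values, 2.97 for LPS in cKO and 2.34 for IL-4 in cKO, and the column for cKO against WT in M0 holds only values below 0.

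In the lines labelled Raw264.7, the H3K4 methyltransferases were higher with the D/E-A mutant than with WT Zmynd8. Kmt2d had a deposited value of 2170 with WT Zmynd8 and 3219 with D/E-A, a log2 fold change of 0.57, and Kmt2a had 1477 and 1825, a log2 fold change of 0.30. The other 4 lay between these, from 0.40 for Kmt2c to 0.55 for Kmt2b. Over the 10 genes, 8 were higher and 0 lower, against 36.7% and 35.9% of the 12771 genes tested, with a median of 0.44 for the 10 and 0.02 for all genes. The length trend was steep, with a median of -0.78 below 1 kb, 0.55 at 6 to 8 kb and 0.42 at 12 kb or more. Once length was subtracted, 1 of the 10 was higher, Kdm6a, and 1 lower, Kdm6b, against 32.1% and 33.8% of all genes with a length. The 5 neutrophil markers were all lower with D/E-A, with a median of -1.55, and the 6 macrophage markers all higher, with a median of 1.04. The part of these in the result was not tested.

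In the library labelled Zmynd8 KO against WT Zmynd8, 0 of the 6 H3K4 methyltransferases were called, with log2 fold changes from -0.26 for Kmt2a to 0.06 for Setd1a. With recovered reads scaled by library totals, Kmt2a at -0.33 and Setd1b at -0.27 were called lower. Higher genes then made up 42.9% of all calls, against 48.0% as deposited. Over the 10 genes, 1 was higher and 2 lower, against 33.8% and 36.5% of the 21302 genes tested. With length subtracted, 1 was higher and 4 lower, Kmt2a and Setd1b among them, both at -0.40, against 31.9% and 33.9% of all genes. All 6 macrophage markers were higher and 4 of 5 neutrophil markers lower in Zmynd8 KO, and their part was not tested.

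In the p65 lines, 0 of the 6 H3K4 methyltransferases were called with K122R against WT p65, and over the 10 genes 0 were higher and 3 lower, against 30.8% and 32.5% of the 19670 genes tested. Rela was higher and Zmynd8 lower with K122R, as given in the label check, and their part was not tested. With recovered reads scaled by library totals, Kmt2c at -0.30 and Setd1a at -0.29 were called lower too, and higher genes made up 37.0% of all calls, against 48.6% as deposited. In p65 KO against WT p65, 0 of the 10 were higher and 7 lower, against 26.3% and 25.7% of the 19879 genes tested. Of those with transcripts of 6 to 8, 8 to 12 and at least 12 kb, 27.9%, 38.7% and 46.1% were lower. Kmt2c had a deposited value of 1520 with WT p65 and 1116 in p65 KO, a log2 fold change of -0.45 with limits of -0.56 and -0.33. Kmt2a and Kmt2d, both at -0.43, and Setd1b at -0.29 fell as well. The median was -0.32 for the 10 genes and 0.01 for all genes. Subtracting by length left 3 of the 10 lower and 0 higher, against 22.0% and 24.9% of all genes, and 0 of these 3 were H3K4 methyltransferases.

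Of the H3K27 demethylases, Kdm6b was the gene of the 10 that rose most after each treatment. It had 185, 711 and 712 counts in WT M0, M1 and M2, and 95, 933 and 661 counts in cKO. Its level was 7.06, 28.6 and 25.1 CPM in WT and 4.20, 39.8 and 25.3 CPM in cKO. It was low in both M0 libraries and higher in the 4 treated ones. After LPS the log2 fold change was 1.87 in WT and 2.97 in cKO, and relative to the median of all genes 2.46 and 3.52. After IL-4 it was 1.69 in WT and 2.34 in cKO, and relative to the median 1.55 and 2.17. The 3 LPS markers were all higher after IL-4 in cKO too, with a median of 3.35, while in WT 1 was higher and 1 lower, and their part was not tested. Each of these 4 rises was also called with median-ratio and TMM scaling, with the deposited TPM and after the subtraction by length.

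Between the genotypes, Kdm6b was lower in cKO M0, with a log2 fold change of -0.63 and limits of -1.12 and -0.38. It was higher in cKO M1, with a log2 fold change of 0.47, and in M2 its value was 0.01. Neither call held after the subtraction by length. In the Raw264.7 lines, Kdm6b had a deposited value of 5901 with WT p65 and 4524 with K122R, and of 5913 and 4539 with WT p65 and in p65 KO, a log2 fold change of -0.38 in each. It fell by 0.30 in Zmynd8 KO, from a deposited value of 1504 to 1220, and was not called with D/E-A, where its values were 1409 and 1388, though after the subtraction by length it was lower there at -0.55. The values of 1 library differ between tables because each table was scaled on its own. The comparisons of K122R and p65 KO share the WT p65 library, and those of D/E-A and Zmynd8 KO share the WT Zmynd8 library.

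Kdm6a, the X-linked H3K27 demethylase, moved otherwise. It stood at 42.7, 28.8 and 58.8 CPM in WT M0, M1 and M2, and at 28.4, 32.4 and 45.6 CPM in cKO. The cKO level was lower than WT in M0 and M2 and close to it in M1. The log2 fold change was -0.57 in M0 and -0.36 in M2, with limits of -0.48 and -0.26 in M2, and 0.16 in M1, which was not called. With the deposited TPM, Kdm6a was called higher in M1, at 7.12 in WT and 8.85 in cKO. After the subtraction by length the M0 call was lost and the M2 call held. LPS in WT gave -0.55 with library totals, where the sign turned with median-ratio scaling to 0.13 and with TMM to 0.11, both uncalled.

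In the lines labelled Raw264.7, Kdm6a was the one of the 10 called higher both with D/E-A and in Zmynd8 KO. Its deposited value was 249 with WT Zmynd8 and 478 with D/E-A, a log2 fold change of 0.94 with limits of 0.72 and 1.17. It was 266 and 412 with WT Zmynd8 and in Zmynd8 KO, a log2 fold change of 0.63 with limits of 0.41 and 0.86. After the subtraction by length it was still higher in each, at 0.49 and 0.39. In the p65 lines its values were 0.07 for K122R and -0.06 for p65 KO, and neither was called.

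Uty, the copy of Kdm6a on the Y chromosome, had 112 reads with WT p65, 370 with K122R and 153 in p65 KO. It was higher with K122R at 1.77 and in p65 KO at 0.50, and the Y-linked Ddx3y was higher there too, at 2.23 and 0.81. Uty was not listed in the tables of the Zmynd8 lines and had at most 2 counts in any BMDM library.

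The balance of the 2 demethylases, read from TPM, moved with treatment. Kdm6b made up 12.3%, 45.2% and 26.2% of the summed TPM of Kdm6a and Kdm6b in WT M0, M1 and M2, and 10.9%, 49.5% and 34.0% in cKO. The share was lowest in M0 and highest in M1 in both genotypes.

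Of the H3K27 methyltransferases, Ezh1 stood at 47.1, 38.3 and 83.5 CPM in WT M0, M1 and M2, and at 39.7, 34.9 and 71.5 CPM in cKO. It was highest in M2 in both genotypes and was not called between the genotypes with CPM, with log2 fold changes of -0.24 in M0, -0.13 in M1 and -0.22 in M2. With the deposited TPM it was called lower in cKO M0, at -0.55. After IL-4 it rose by 0.81 in WT and 0.83 in cKO, and relative to the median of all genes by 0.67 and 0.66. After LPS in WT it was lower at -0.29 with library totals and higher at 0.40 with median-ratio and at 0.37 with TMM scaling. In cKO, LPS gave -0.18, uncalled, and it was called higher with median-ratio scaling at 0.46 and with TMM at 0.42.

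Ezh2, the subunit known to follow cell division, had the narrowest range of the 10 by CPM, though not by TPM. It stood at 9.69, 5.94 and 9.62 CPM in WT M0, M1 and M2, and at 8.67, 6.74 and 8.19 CPM in cKO, and was lowest in M1 in both. LPS left it lower at -0.62 in WT and at -0.32 in cKO, and median-ratio scaling put these at 0.00, uncalled, and at 0.26, a call in the other direction. The 15 proliferation genes had medians of -1.77 in WT and -2.31 in cKO after LPS, with 14 lower in WT and 15 in cKO, against 63% and 60.5% of all genes. Mki67 was the exception in WT, higher at 0.44, and in cKO at -0.34 it stood above the median of all genes. After IL-4, 4 of those genes were higher and 6 lower in WT, against 41.3% and 23.1% of all genes, and 4 were higher and 10 lower in cKO, against 44.7% and 26.2%. Ezh2 then had values of -0.01 in WT and -0.07 in cKO. With the deposited TPM, Ezh2 was called lower after IL-4 in cKO, at 9.32 in M0 and 6.76 in M2. The 10 proliferation genes higher in cKO M0 stood beside an Ezh2 value of -0.14, uncalled.

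In Raw264.7, Ezh1 and Ezh2 were both lower in each p65 comparison. Ezh1 had a deposited value of 498 with WT p65 and 315 with K122R, a log2 fold change of -0.66 with limits of -0.87 and -0.46, and Ezh2 had 846 and 677, a log2 fold change of -0.32. In p65 KO the log2 fold change was -0.30 for Ezh1 and -0.33 for Ezh2. After the subtraction by length both were still lower in both comparisons. The proliferation genes had 8 lower and 1 higher with K122R, against 32.5% and 30.8% of all genes, and 11 lower and 0 higher in p65 KO, against 25.7% and 26.3%, and their part was not tested. In the Zmynd8 lines, Ezh1 was higher with D/E-A at 0.29, and Ezh2 was lower in Zmynd8 KO at -0.34. The call of Ezh1 with D/E-A did not hold with recovered reads scaled by library totals.

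By TPM, Ezh2 made up 33.5%, 25.2% and 23.6% of the sum of Ezh1 and Ezh2 in WT M0, M1 and M2, and 43.4%, 25.2% and 20.3% in cKO. Ezh1 was thus the more abundant of the pair in all 6 BMDM libraries. Among the H3K4 methyltransferase pairs, Setd1a made up 51.1%, 30.6% and 54.2% of its pair in WT and 65.9%, 29.5% and 55.6% in cKO, lowest in M1. Kmt2a made up less of its pair than Kmt2b in each library, from 12.6% in cKO M0 to 34.5% in WT M2. Kmt2c made up 30.1% of its pair with Kmt2d in cKO M0 and 44.1% in cKO M1.

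The other genes of these complexes were read as lists, without the subtraction by length. The COMPASS core subunits Wdr5, Rbbp5, Ash2l and Dpy30 were all lower after LPS in both genotypes, with medians of -1.74 in WT and -1.94 in cKO, in comparisons where 63% and 60.5% of all genes were lower, and Rbbp5 at -0.39 in cKO stood above the median of all genes. Between the genotypes in M0, 1 of the 4 was higher, Dpy30 at 0.64, and 1 lower, Rbbp5 at -0.48, and 0 of 4 were called in M1, against 22.6% of all genes higher and 13.3% lower, or in M2, against 17.3% and 13.4%. Of the 8 subunits of single complexes, 1 was higher and 3 lower in cKO M0, against 25.0% and 29.0% of all genes, with Pagr1a at 1.40 and Hcfc1 at -0.76. In M1, 3 of the 7 tested were higher and 0 lower, against 22.6% and 13.3%, with Hcfc1 at 0.65.

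The H3K4 demethylases are enzymes that oppose the methyltransferases. As measured, without the subtraction by length, 4 of the 5 tested were lower and 0 higher in cKO M0, against 29.0% and 25.0% of all genes, with Kdm5a at -1.01. The part of the length trends, which ran opposite ways in M0 and M1, was not tested. In cKO M1, 3 were higher and 0 lower, against 22.6% and 13.3%, with Kdm5a at 0.66, and in cKO M2, 2 were lower and 0 higher, against 13.4% and 17.3%. After LPS, Kdm5b was the highest of them, at 0.96 in WT and 1.33 in cKO.

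Of the 9 other PRC2 subunits, 1 was higher and 3 lower in cKO M0, against 25.0% and 29.0% of all genes, with Suz12 at -0.63. In cKO M1, 3 were higher and 0 lower, against 22.6% and 13.3%, with Mtf2 at 0.49, and 0 were called in M2, against 17.3% and 13.4%. After LPS, Jarid2 was the highest of them at 1.07 in WT and 1.80 in cKO, and Rbbp7 the lowest at -1.88 and -1.83. In the lines labelled Raw264.7, 4 were higher and 1 lower with D/E-A, against 36.7% and 35.9% of all genes, and 6 higher and 1 lower in Zmynd8 KO, against 33.8% and 36.5%. With K122R, 0 were higher and 3 lower, against 30.8% and 32.5%, and in p65 KO 1 was higher and 1 lower, against 26.3% and 25.7%. For the 4 core subunits the D/E-A comparison gave 1 higher and 2 lower, for the 8 subunits of single complexes 4 higher and 1 lower, with Ncoa6 at 1.14, and for the 5 H3K4 demethylases listed 2 higher and 0 lower.

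How alike the 10 genes were across the 6 BMDM libraries was measured as the root mean square difference of log2 CPM plus 1, each gene centred on its own mean. The closest pairs were Kmt2a with Kmt2d and Kmt2b with Kdm6a, both at 0.119, and the most distant was Setd1a with Kdm6b at 1.40. Among genes that averaged 100 counts or more, Arid5b, at 0.11, was nearest to Kdm6b, followed by Adap2, H2-Q10, Atrnl1 and Itgal at 0.17 to 0.18. Arid5b stood at 27.1, 93.3 and 74.2 CPM in WT M0, M1 and M2, and at 14.7, 144 and 79.5 CPM in cKO. The genes nearest to Ezh2 were Coq10b, Add1 and Mospd2, all at 0.05, and Commd8 and Rab33b at 0.06.

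RefSeq promoters, of 250 bases before and 50 after the gene start in build GRCm38.p6, were available for 7 of the 10 genes, with no entry for Kmt2b, Setd1b and Kdm6b. Kmt2a, at chr9:44881240-44881539 on the minus strand, and Kmt2d, at chr15:98871156-98871455 on the minus strand, are shown because they were a closest pair in the BMDM libraries, and the equally close pair of Kmt2b and Kdm6a is not whole in the table. Ezh2, at chr6:47594981-47595280 on the minus strand, is shown beside them as a gene of another pattern. Capitals mark matches, on either strand, to the GC box GGGCGG, the CCAAT box CCAAT and the E2F motif TTTGGCG, which were chosen after the sequences were seen.
Kmt2a: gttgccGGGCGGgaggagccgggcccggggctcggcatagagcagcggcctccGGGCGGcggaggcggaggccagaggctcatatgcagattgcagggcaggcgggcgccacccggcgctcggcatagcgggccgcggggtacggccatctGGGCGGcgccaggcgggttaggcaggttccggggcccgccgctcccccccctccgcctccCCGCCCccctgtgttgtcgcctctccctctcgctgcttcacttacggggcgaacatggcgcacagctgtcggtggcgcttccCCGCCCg
Kmt2d: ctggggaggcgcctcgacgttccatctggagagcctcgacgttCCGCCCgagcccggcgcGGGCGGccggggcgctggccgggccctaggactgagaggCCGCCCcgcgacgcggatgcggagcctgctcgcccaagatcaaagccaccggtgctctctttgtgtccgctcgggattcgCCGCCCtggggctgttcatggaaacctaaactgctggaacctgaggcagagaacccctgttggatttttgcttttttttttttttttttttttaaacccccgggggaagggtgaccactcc
Ezh2: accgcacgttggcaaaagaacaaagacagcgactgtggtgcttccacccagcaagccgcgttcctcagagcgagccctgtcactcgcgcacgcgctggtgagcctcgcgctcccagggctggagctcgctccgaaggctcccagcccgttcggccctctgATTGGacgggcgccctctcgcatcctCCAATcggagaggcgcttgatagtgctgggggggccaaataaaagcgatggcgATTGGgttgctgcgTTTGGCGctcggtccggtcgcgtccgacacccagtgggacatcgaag
Kmt2a held 5 GC boxes and Kmt2d 4, with 0 matches to the other motifs, and Ezh2 held 3 CCAAT boxes, 1 E2F motif and 0 GC boxes. Of the 4 other promoters available, Kmt2c held 12 GC boxes, Kdm6a 1 and Setd1a and Ezh1 0, with 0 matches to the other motifs in any of them. Of all 32851 promoters of this length, 35.7% held a GC box, 37.4% a CCAAT box and 1.56% the E2F motif. A match describes the letters of this window and no binding was measured here.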

How the data were processed

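The deposited BMDM tables hold, for 2 libraries each, estimated counts per gene and TPM. The study's methods name TopHat, for alignment to the mm10 transcriptome, and Cuffdiff. The tables carry the name of DEGseq, and the program behind the counts is not stated in the sources used. Counts were rounded and scaled by library totals, and a gene was tested where its mean over both libraries reached 10 counts. Entries without counts (431, 431 and 2 in the M0, M1 and M2 tables) were left out. The deposited Raw264.7 tables hold a signal: gene counts that the authors had scaled with a size factor, set by library and table, so reads were recovered from the spacing of the low values. Every value was a whole number of reads within a tolerance of 0.1 except 1, that of Zmynd8 in the Zmynd8 KO column, which was rounded. The plan had allowed for counts or normalized values here. Genes with a mean deposited value of at least 1 were tested. The shares of all genes in Raw264.7 can thus include genes with few reads, unlike the 10 enzymes.

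The columns of the authors' fold changes and p-values were not used, nor were 2 columns without a label for each sample. The 35 other samples of the series were not analysed here. Genes were named by list: the 10 enzymes, subunits of their complexes, H3K4 demethylases, label checks, treatment, proliferation and cell type markers, and the 5 genes most like Kdm6b and most like Ezh2. A planned treatment marker was not used here. The members and lists were chosen with earlier results of these data known. Gene lengths and positions came from GENCODE vM21 (GRCm38), the build of mm10. Software was Python 3.11.15, numpy 2.4.6, pandas 2.3.3, scipy 1.17.1, matplotlib 3.10.9, R 4.3.3, edgeR 4.0.16 and DESeq2 1.42.0.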

Additional observations from a re-analysis of the deposited data

Results flagged for a closer look

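For 5 genes the comparison of cKO with WT was called lower in untreated BMDMs and higher after LPS, in 1 library for each group, and the difference between these comparisons was not tested. The log2 fold changes in M0 and M1 were -1.16 and 0.69 for Kmt2a, -1.35 and 0.65 for Kmt2c, -1.04 and 0.44 for Kmt2d, -1.07 and 0.31 for Setd1b, and -0.63 and 0.47 for Kdm6b. After the subtraction by length, chosen after seeing the data, both calls held for Kmt2a and Kmt2c, the M1 calls of Kmt2d at 0.08 and Setd1b at 0.04 were lost, and both calls of Kdm6b, at -0.25 and 0.23, were lost. With the deposited TPM the M1 call of Kmt2d was lost too, at a TPM of 17.02 in WT M1 and 19.24 in cKO M1. Of all genes tested, 29.0% were lower in M0 and 22.6% higher in M1, and the share called both ways is not given here. Among genes with transcripts of at least 12 kb, 74.2% were lower in M0 and 75.8% higher in M1. These shares were 71.1% and 52.1% at 8 to 12 kb, and 64.5% and 45.1% at 6 to 8 kb. The medians of genes of at least 12 kb were -0.58 in M0 and 0.47 in M1, and the part of this trend was not tested.

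For Kmt2a the response to LPS was also called in opposite directions, lower in WT at -0.60 and higher in cKO at 1.25, and this difference was not tested either. With median-ratio scaling the WT value was 0.09, which was not called, and relative to the median of all genes it was -0.02. It became 0.29 after the subtraction by length, called higher as in cKO.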

How the results depend on the processing

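With 1 library in each group, no replicate could be left out. The number of the 10 genes called stayed within 1.5 times its value in all 11 comparisons with a pseudocount of 0.1, with no filter on low values and with counting limits added to the fold, and in all 7 BMDM comparisons with TMM or median-ratio scaling. That number leaves out the direction of the calls. For LPS in WT, median-ratio scaling called Setd1b, Kmt2c, Kmt2d and Ezh1 higher. Kmt2a, Kmt2b, Kdm6a and Ezh2, lower with library totals, were then not called. The cause of the changes below was not tested.

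A fold of at least 1.5 called 2 genes for cKO against WT in M1, 0 in M2, 4 for LPS in WT, 1 each for D/E-A, Zmynd8 KO and K122R, and 0 for p65 KO. An edgeR exact test in which the biological coefficient of variation was taken as 0.2 called 1, 0 and 0 for cKO against WT in M0, M1 and M2, 2 for LPS in WT, 1 and 5 for IL-4 in WT and cKO, and 0 in the 4 Raw264.7 comparisons. Shares over all genes are not given for the fold of 1.5 or the exact test, and so these counts cannot be set against them. The deposited TPM called 2 for cKO against WT in M2, where higher genes made up 52.0% of all calls, against 56.5% with CPM. Recovered reads scaled by library totals called 5 for Zmynd8 KO and 5 for K122R. With that scaling the values of all genes moved down too. Higher genes made up 42.9% of all calls for Zmynd8 KO, against 48.0% as deposited. For K122R they made up 37.0%, against 48.6%. The subtraction by length, chosen after seeing the data, called 4 for cKO against WT in M0, 2 in M1, 5 for IL-4 in WT, 2 for D/E-A, 5 for Zmynd8 KO and 3 for p65 KO.

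Among the values called with the settings of the report, signs turned as follows. With median-ratio scaling, LPS in WT gave 0.09 for Kmt2a, 0.18 for Kmt2b, 0.13 for Kdm6a, 0.40 for Ezh1 and 0.00 for Ezh2, and LPS in cKO gave 0.26 for Ezh2. With TMM scaling, LPS in WT gave 0.06 for Kmt2a, 0.15 for Kmt2b, 0.11 for Kdm6a and 0.37 for Ezh1, and LPS in cKO gave 0.22 for Ezh2. After the subtraction by length, cKO against WT in M0 gave 0.10 for Kmt2b, LPS in WT gave 0.29 for Kmt2a, 0.42 for Kmt2b, 0.24 for Kdm6a and 0.31 for Ezh1, and LPS in cKO gave 0.28 for Ezh2. D/E-A gave -0.22 for Kmt2a, -0.13 for Kmt2c, -0.02 for Setd1a and -0.00 for Setd1b. Of 70 single values, 33 kept within their limits with TMM and 33 with median-ratio scaling and 41 with the deposited TPM, as did 33 of 40 with recovered reads by library totals and 37 of 110 after the subtraction by length.

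Depth limits Kdm6b and Ezh2 most among the BMDM values, with as few as 95 and 148 counts. The counting limits leave out the spread between animals or lines, which 1 library for each group cannot show. The Zmynd8 counts did not mark the libraries labelled cKO, and the Zmynd8 lines of Raw264.7 carried neutrophil and Xist reads that the p65 lines lacked.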
